A study of Rattus norvegicus with 20 samples.

Results

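The genes described here are 46 rat genes that drive or mark cell division, from the G1 cyclins through the replicative helicase to the motors and kinases of mitosis. They were chosen by name, from the gene symbols that the array's annotation gives to its probe sets. Of the 46, 40 had values, out of 13462 genes and 27702 probe sets with values in all. A gene with several probe sets was represented by the one with the highest mean over the 20 arrays. Ndc80, Tpx2 and Cdc6 were not listed in the annotation, Rrm2 lay only on probe sets shared with Rrm2l1, and the probe sets of Ccna2 and Ttk held no value on any array, so these 6 are named only. The 46 genes had 63 probe sets of their own, 57 with values, and 11 genes had more than 1.

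A dividing cell copies its DNA once, in S phase, and then separates the copies in mitosis. D-type and E-type cyclins with their kinases start the cycle, the Mcm helicase opens DNA at origins and Pcna holds the polymerases on it, and Cdk1 with the B-type cyclins brings on mitosis, which ends when the anaphase-promoting complex destroys those cyclins. Most adult hepatocytes rest outside the cycle and few divide at any time, but the liver of a young rat is still growing, and hepatocytes of this age also become binucleate and polyploid, so copying of DNA there need not end in 2 cells. In whole liver, fewer dividing cells and less messenger RNA in each of them cannot be told apart.

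The livers came from 20 male Sprague-Dawley rats, which arrived at 4 weeks of age, ate a stock diet for 5 days and then 1 of 4 experimental diets for 21 days, with 5 rats per diet on arrays. The control diet held casein, the milk protein, at 200 g per kg. Casein and Fukuyutaka, a conventional soybean cultivar, supplied equal parts of the protein of the conventional soybean diet, and in the other 2 diets casein was combined with Yukipirika, a soybean cultivar rich in isoflavones, plant compounds that bind estrogen receptors. These are called the 1:1 diet, with equal parts of casein and Yukipirika, and the 3:1 diet, with 3 parts of casein to 1 part of Yukipirika. The arrayed rats were those with an average food intake, out of 7 per diet and 8 on the 1:1 diet. Titles were matched to these diets by their wording, because the labels do not pair the 2: the title that names casein with the high-isoflavone soybean was taken as the 3:1 diet, and the title that names the high-isoflavone soybean alone as the 1:1 diet. A soybean diet differed from the control in the whole protein source and what came with it, not in isoflavones alone. The comparisons asked what soybean in the diet, its cultivar and its share did to messenger RNAs of the liver.

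All values are log2 signals, so a difference of 1 is a 2-fold difference, and values of different probe sets are not set against each other. Array medians lay between 2.43 and 2.57. The hepatocyte marker Alb stood between 9.91 and 10.5 on every array. Casein replicate 5 and replicate 1 of the 3:1 diet had their lowest signals at 0.45 and 0.47, against -0.88 or lower on the other 18 arrays, and the 4 arrays numbered 1 deviated together from their diet means over all probe sets (correlations of 0.203 to 0.401 for the 6 pairs). For the cell cycle genes described below, calls that changed without these arrays are given in both forms. By their means, 8 of the 40 genes lay below the lower quartile of all probe sets (1.84), 21 lay under the median of all probe sets (2.48) and 19 above it, so a large part of the family was measured at dim signals.

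Between diets, Kif11 was the 1 gene of the 40 that passed the test, and it rose on both diets in which soybean was an equal part of the protein. Adjusted p-values are those of limma, a linear model fitted over all arrays, adjusted by the Benjamini-Hochberg method over the 27702 probe sets, and a gene was called where the adjusted p lay under 0.05. On conventional soybean against casein 1 of the 40 genes was called, against 1.86% of all genes, and 8 of the 40 had an unadjusted p under 0.05, which is 20% of them against 17.2% of all genes. On the 1:1 diet against casein 1 was called (2.53% of all genes) and 6 had such an unadjusted p (15% against 17.5%). On the 3:1 diet against casein none was called (0.0594% of all genes) and 3 had an unadjusted p under 0.05 (7.5% against 8.51%). These 3 comparisons share the same 5 casein livers. In the test of any difference among the 4 diets 1 gene was called (1.59% of all genes) and 5 had an unadjusted p under 0.05 (12.5% against 16%). The shares of the family that passed either threshold therefore lay near those of all genes in each comparison.

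Set against each other in 2 pairs, the soybean diets differed in none of the 40 genes at the adjusted threshold. Conventional soybean and the 3:1 diet, which differ in both cultivar and share, were not compared as a pair. For the 1:1 diet against conventional soybean, which differ in the cultivar, 0.104% of all genes were called and 5 of the 40 had an unadjusted p under 0.05 (12.5% against 7.29% of all genes). For the 1:1 against the 3:1 diet, which differ in the share of soybean, 0% of all genes were called and 2 of the 40 had an unadjusted p under 0.05 (5% against 7.45%).

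The middle of the family moved little. The median difference from casein over the 40 genes was 0.10 on conventional soybean, -0.07 on the 1:1 diet and 0.04 on the 3:1 diet, beside medians over all genes of 0.04, 0.03 and 0.01. From conventional soybean to the 1:1 diet the median was -0.20 with 12 of the 40 genes above 0 and 28 below. Over all genes the median was -0.01 and 47.3% lay above 0. From the 3:1 to the 1:1 diet the median of the 40 was -0.10 with 14 above 0 and 26 below, beside 0.02 and 53.9% above 0 over all genes. On conventional soybean 29 of the 40 genes lay above casein, beside 58.5% of all genes. The count among the 40 was 24 after quantile normalization of the arrays and 22 after centring and scaling each array. Over all genes those settings also moved the called split for conventional soybean, from 145 higher and 106 lower to 96 and 204, and to 68 and 287. For the 1:1 diet against casein they moved it from 179 higher and 161 lower to 135 and 211, and to 93 and 281. The 95% interval of the difference stayed within 1 log2 unit of 0 in 31, 32 and 35 of the 40 genes for conventional soybean, the 1:1 and the 3:1 diet against casein, so that in most of them the interval left out a 2-fold change.

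**Figure D1:**
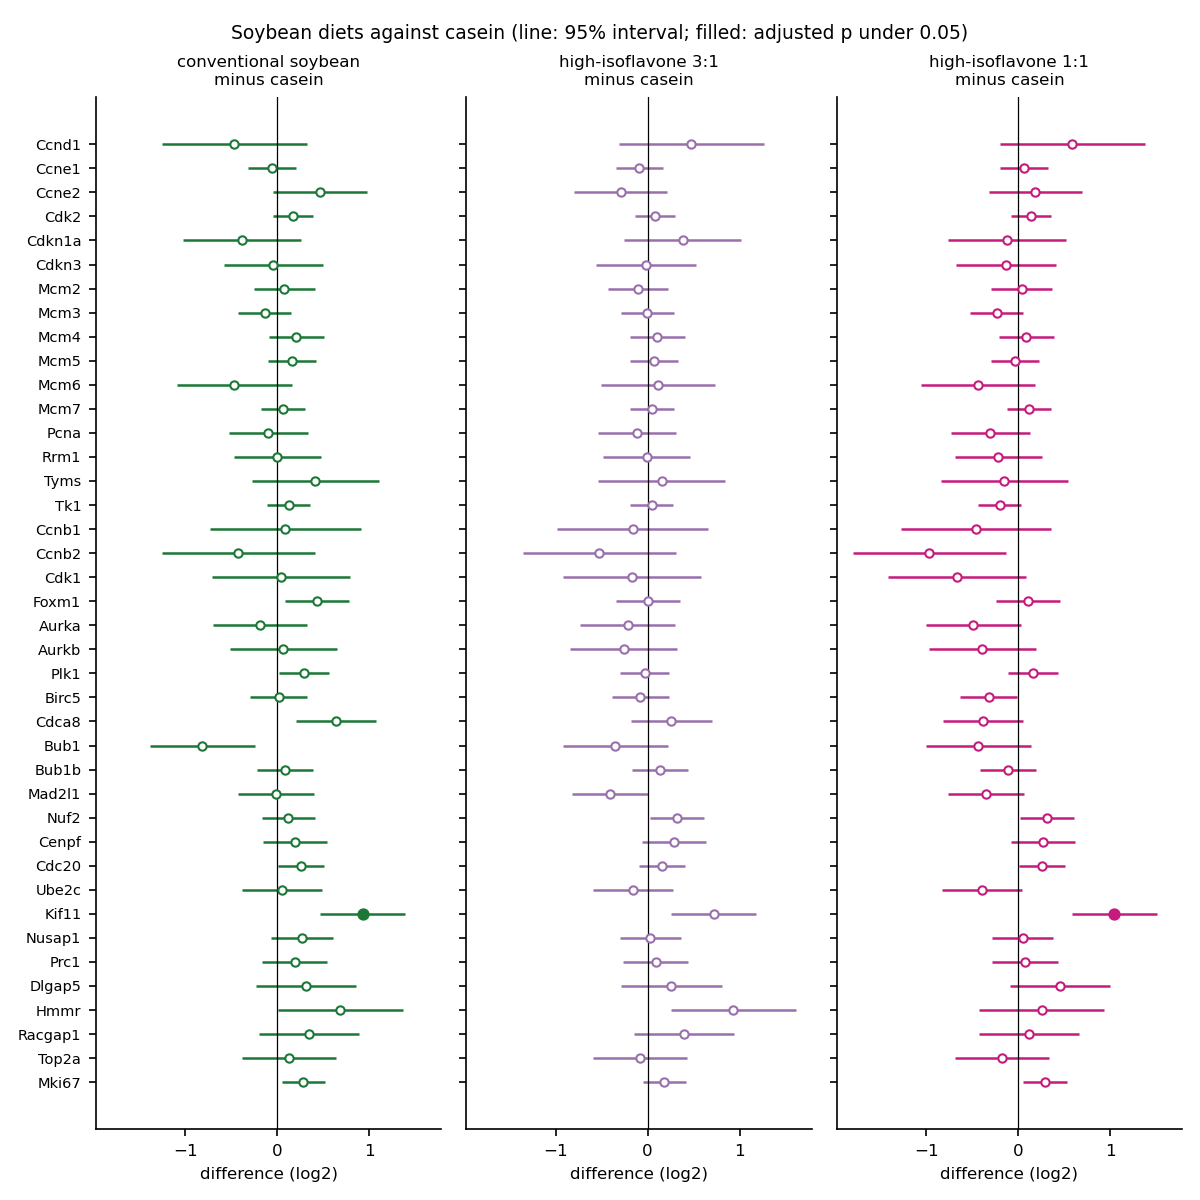
Difference of each soybean diet from casein in 40 cell cycle and replication genes (x axis, log2; points with 95% intervals; filled where the adjusted p lies under 0.05). Kif11 is the filled point on conventional soybean (0.93) and on the 1:1 diet (1.05), and no point is filled on the 3:1 diet.

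Kif11 encodes the kinesin motor that slides spindle microtubules apart and makes the mitotic spindle bipolar. Its signal was 1.88, 1.76, 1.53, 2.21 and 1.26 on casein, 2.47, 2.45, 2.60, 2.77 and 3.01 on conventional soybean, 2.28, 2.60, 2.01, 2.87 and 2.48 on the 3:1 diet and 3.58, 2.76, 2.98, 2.10 and 2.46 on the 1:1 diet. All 5 livers on conventional soybean stood above all 5 on casein, and on the 1:1 diet only replicate 4 lay within the casein range. The mean was 1.73 ± 0.36 on casein (SD, n = 5), 2.66 ± 0.23 on conventional soybean, 2.45 ± 0.32 on the 3:1 diet and 2.78 ± 0.56 on the 1:1 diet. Kif11 rose 1.91-fold on conventional soybean, a log2 difference of 0.93 (SE 0.22, adjusted p = 0.0378) with a 95% interval of 0.47 to 1.40. On the 1:1 diet it rose 2.07-fold, a difference of 1.05 (SE 0.22, adjusted p = 0.0143) with a 95% interval of 0.59 to 1.51. On the 3:1 diet its difference from casein was 0.72 (SE 0.22, adjusted p = 0.310), between those values and 0. The 1:1 diet did not differ from conventional soybean by more than the spread (0.12, 95% interval -0.35 to 0.58). In the test of any difference among the 4 diets its adjusted p was 0.0440.

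The call for Kif11 ended without some of the arrays. On conventional soybean against casein the adjusted p reached 0.102 without casein replicate 5, 0.0796 without casein replicate 3, 0.0698 without casein replicate 2, and 0.0682, 0.0733 and 0.0947 without conventional soybean replicates 3, 4 and 5. It was 0.111 without both higher-floor arrays, where the difference was 0.82. On the 1:1 diet the call held in all 20 omissions of a single array and ended without both higher-floor arrays (0.0559), without the 4 arrays numbered 1 (0.0564) and with only the 10 arrays compared (0.0516). These differences kept their sign throughout, from 0.82 to 1.05 on conventional soybean and from 0.85 to 1.22 on the 1:1 diet. The call among the 4 diets ended for 14 of the 20 arrays when each was left out, at most at 0.148. It also ended without both higher-floor arrays (0.162), without the 4 arrays numbered 1 (0.0794), without the trend (0.0603) and under both other scalings (0.0505 and 0.0506). A second Kif11 probe set held no value on any array, so the rise was measured on 1 probe set.

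**Figure D2:**
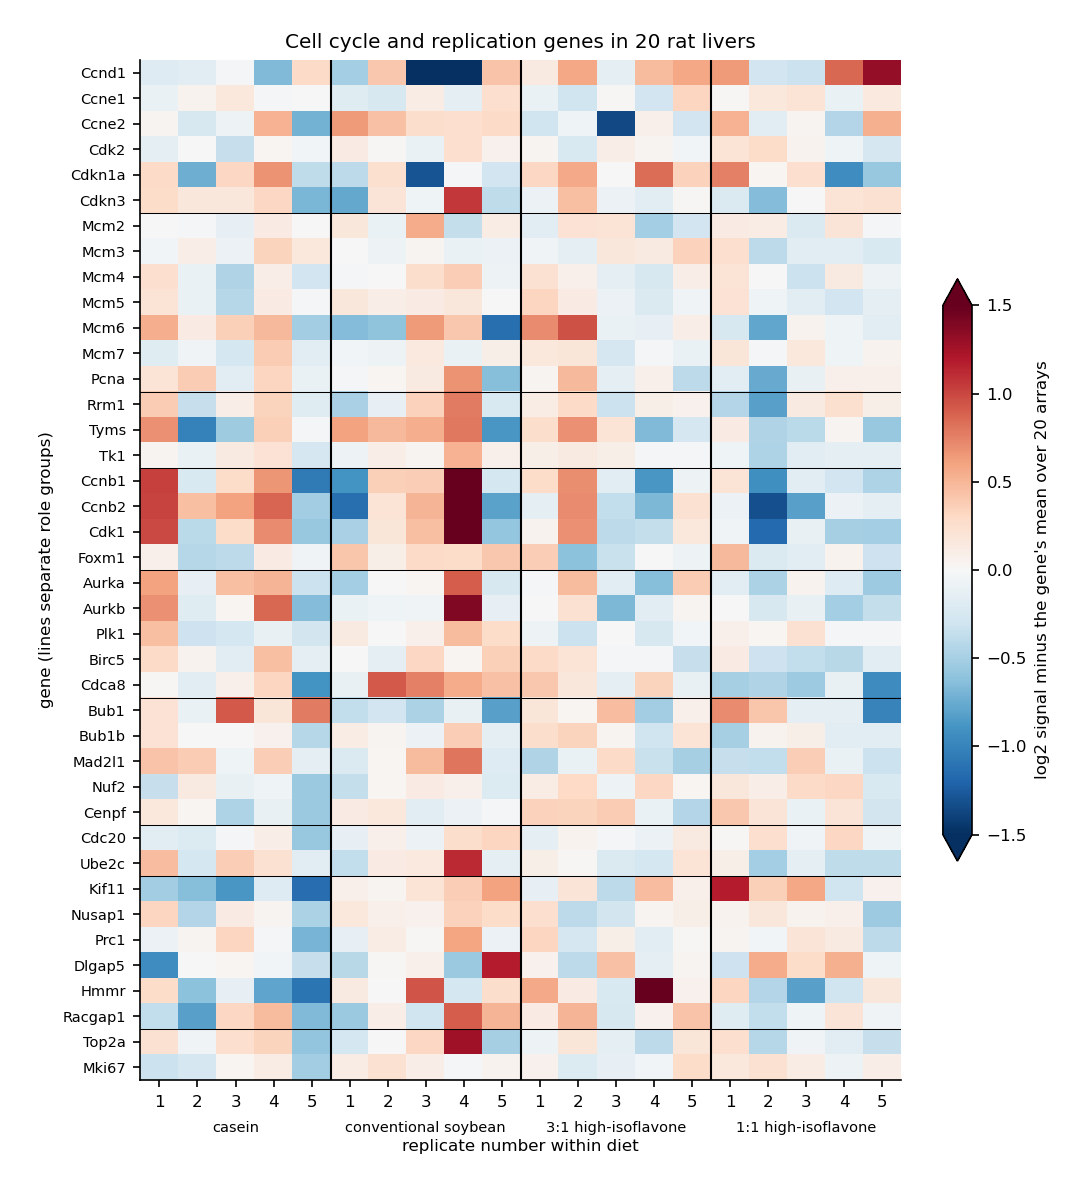
Signal of the 40 genes on each of the 20 arrays (columns, by diet and replicate), as log2 minus the gene's mean over the arrays; horizontal lines separate role groups and the colour scale ends at -1.5 and 1.5. Kif11 is low on the 5 casein arrays, and the column of conventional soybean replicate 4 is high for Ccnb1, Ccnb2, Cdk1, Aurkb, Ube2c and Top2a together.

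Of the 6 regulators of the passage from G1 to S, none passed in any comparison, and Ccnd1 varied most between rats. Ccnd1 encodes cyclin D1, the growth factor-induced partner of Cdk4 and Cdk6. Its signal was 4.45, 4.48, 4.62, 3.97 and 4.93 on casein, 4.14, 5.04, 3.0, 2.88 and 5.07 on conventional soybean, 4.78, 5.23, 4.49, 5.11 and 5.23 on the 3:1 diet and 5.28, 4.36, 4.32, 5.50 and 5.95 on the 1:1 diet. On conventional soybean replicates 3 and 4 lay at 3.0 and 2.88 while the other 3 livers lay at 4.14 or higher, and on the 1:1 diet replicates 4 and 5 were the highest of all 20. The 1:1 diet differed from conventional soybean by 1.06 (SE 0.38, adjusted p = 0.541) and from casein by 0.59 (SE 0.38, adjusted p = 0.469). Its 2 other probe sets followed the first across the 20 livers with diet means removed (r = 0.940 and 0.944), so its spread was not that of 1 probe set. Its within-diet SD of 0.68 made it 1 of the 3 most variable of the brighter genes.

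Ccne2, an E-type cyclin that activates Cdk2, read 2.28, 2.0, 2.16, 2.76 and 1.53 on casein, 2.88, 2.67, 2.50, 2.50 and 2.52 on conventional soybean, 1.94, 2.18, 0.88, 2.32 and 1.95 on the 3:1 diet and 2.75, 2.08, 2.28, 1.80 and 2.77 on the 1:1 diet. Replicate 3 of the 3:1 diet was the lowest of the 20, and conventional soybean was the tightest group, at 2.50 to 2.88. The smallest adjusted p of Ccne2 was that of the test among the 4 diets, 0.289. Cdk2, the kinase of the E-type cyclins, read 3.76, 3.90, 3.55, 3.92 and 3.85 on casein, 4.02, 3.92, 3.80, 4.15 and 3.97 on conventional soybean, 3.94, 3.67, 3.99, 3.93 and 3.86 on the 3:1 diet and 4.10, 4.17, 3.94, 3.83 and 3.64 on the 1:1 diet, and its within-diet SD of 0.16 was among the 3 smallest of the brighter genes. Its difference from casein was 0.17 on conventional soybean (95% interval -0.05 to 0.39) and 0.14 on the 1:1 diet (-0.08 to 0.36). A second, dimmer probe set of Cdk2 had a correlation of -0.183 with the first. There the differences were -0.19 and -0.06, and it did not pass. Ccne1, the other E-type cyclin, ranged from 1.64 to 2.26 with a median of 1.95. Cdkn1a, the inhibitor p21 that p53 induces, ranged from 2.32 to 4.45 with a median of 3.75, and Cdkn3, a phosphatase of Cdk kinases, from 1.52 to 3.35 with a median of 2.31.

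None of the 7 measured replication genes passed, and their differences from casein lay between -0.47 and 0.21 on conventional soybean, between -0.44 and 0.12 on the 1:1 diet and between -0.12 and 0.11 on the 3:1 diet. Mcm2 to Mcm7 encode the 6 subunits of the ring helicase that is loaded at origins. Among them Mcm6, whose mean lay below the lower quartile of all probe sets, had the widest spread, reading 2.12, 1.70, 1.93, 2.06 and 1.06 on casein, 0.92, 0.97, 2.21, 1.98 and 0.44 on conventional soybean, 2.28, 2.53, 1.48, 1.46 and 1.68 on the 3:1 diet and 1.34, 0.79, 1.63, 1.51 and 1.41 on the 1:1 diet. Conventional soybean was split for Mcm6, with replicates 3 and 4 at 2.21 and 1.98 and the other 3 livers at 0.97 or lower. Mcm7 was among the 3 steadiest of the brighter genes, reading 2.87, 3.0, 2.78, 3.42 and 2.89 on casein, 3.0, 2.97, 3.19, 2.95 and 3.13 on conventional soybean, 3.21, 3.23, 2.80, 3.02 and 2.94 on the 3:1 diet and 3.23, 3.03, 3.20, 2.98 and 3.10 on the 1:1 diet. Its difference from casein was 0.06 on conventional soybean (95% interval -0.18 to 0.30), 0.05 on the 3:1 diet (-0.19 to 0.29) and 0.12 on the 1:1 diet (-0.12 to 0.36). Mcm2 ranged from 1.18 to 2.23 with a median of 1.69, Mcm3 from 0.88 to 1.62 with a median of 1.22, Mcm4 from 1.43 to 2.26 with a median of 1.88, and Mcm5 from 1.81 to 2.57 with a median of 2.23. Pcna, the sliding clamp of the DNA polymerases, ranged from 2.61 to 4.03 with a median of 3.39, its lowest value in replicate 2 of the 1:1 diet.

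The 3 measured genes of nucleotide supply did not pass either. Tk1, the thymidine kinase of S phase, read 2.86, 2.73, 2.96, 3.04 and 2.57 on casein, 2.74, 2.93, 2.86, 3.34 and 2.90 on conventional soybean, 2.91, 2.95, 2.91, 2.80 and 2.80 on the 3:1 diet and 2.76, 2.37, 2.66, 2.68 and 2.69 on the 1:1 diet. Its 5 livers on the 1:1 diet, at most 2.76, all lay below the 5 on the 3:1 diet, at least 2.80. The difference between these diets was -0.24 (SE 0.11, adjusted p = 0.688), and that from conventional soybean -0.32 (SE 0.11, adjusted p = 0.521). Tk1 had 2 other probe sets, with correlations to the first of 0.483 and -0.418, and neither passed. On them the 1:1 diet differed from the 3:1 diet by -0.12 and 0.21, and from conventional soybean by -0.24 and 0.10. The direction in Tk1 therefore depended on the probe set. Tyms, thymidylate synthase, was dim and read 1.62, -0.07, 0.40, 1.29 and 0.92 on casein, 1.53, 1.42, 1.48, 1.73 and 0.07 on conventional soybean, 1.2, 1.62, 1.14, 0.28 and 0.68 on the 3:1 diet and 1.06, 0.48, 0.53, 0.98 and 0.36 on the 1:1 diet. Conventional soybean replicate 5 lay at 0.07 while the other 4 livers of its diet lay between 1.42 and 1.73, and the casein livers spread from -0.07 to 1.62. Rrm1, the large subunit of ribonucleotide reductase, ranged from 0.95 to 2.55 with a median of 1.85.

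Of the genes that take a cell into mitosis, Ccnb1, Ccnb2 and Cdk1 had a wide spread within every diet and none passed. Ccnb1, a B-type cyclin, read 4.34, 3.09, 3.60, 3.98 and 2.25 on casein, 2.42, 3.68, 3.69, 4.87 and 3.05 on conventional soybean, 3.59, 4.01, 3.15, 2.45 and 3.24 on the 3:1 diet and 3.52, 2.40, 3.15, 3.03 and 2.86 on the 1:1 diet. Each diet held both high and low livers: casein ran from 2.25 to 4.34, conventional soybean from 2.42 to 4.87, the 3:1 diet from 2.45 to 4.01 and the 1:1 diet from 2.40 to 3.52. The differences of Ccnb1 from casein were 0.09 on conventional soybean (95% interval -0.73 to 0.91), -0.16 on the 3:1 diet (-0.98 to 0.65) and -0.46 on the 1:1 diet (-1.28 to 0.36). A second, dimmer probe set of Ccnb1 followed it with r = 0.480.

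Ccnb2, the second B-type cyclin, read 3.89, 3.32, 3.47, 3.75 and 2.35 on casein, 1.74, 3.08, 3.38, 4.37 and 2.07 on conventional soybean, 2.74, 3.58, 2.50, 2.20 and 3.10 on the 3:1 diet and 2.78, 1.55, 2.06, 2.79 and 2.73 on the 1:1 diet. Of the casein livers 4 lay at 3.32 or higher and replicate 5 at 2.35, conventional soybean spanned 1.74 to 4.37, and replicate 2 of the 1:1 diet was the lowest of all. On the 1:1 diet Ccnb2 differed from casein by -0.97 (SE 0.40, adjusted p = 0.215), the most negative difference from casein in the family, and it did not pass. Cdk1, the kinase that both cyclins activate, read 3.78, 2.40, 3.07, 3.50 and 2.23 on casein, 2.31, 2.98, 3.25, 4.45 and 2.21 on conventional soybean, 2.85, 3.48, 2.41, 2.44 and 2.95 on the 3:1 diet and 2.75, 1.63, 2.69, 2.30 and 2.29 on the 1:1 diet. Conventional soybean replicate 4 and casein replicate 1 were again its highest livers, and its difference from casein on the 1:1 diet was -0.67 (SE 0.36, adjusted p = 0.368). Foxm1, a transcription factor of mitotic genes, ranged from 2.21 to 3.32 with a median of 2.86, and its difference on conventional soybean was 0.43 (SE 0.17, adjusted p = 0.195). A second, dimmer probe set of Foxm1 followed the first with r = 0.109, and its difference on conventional soybean was -0.02.

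**Figure D3:**
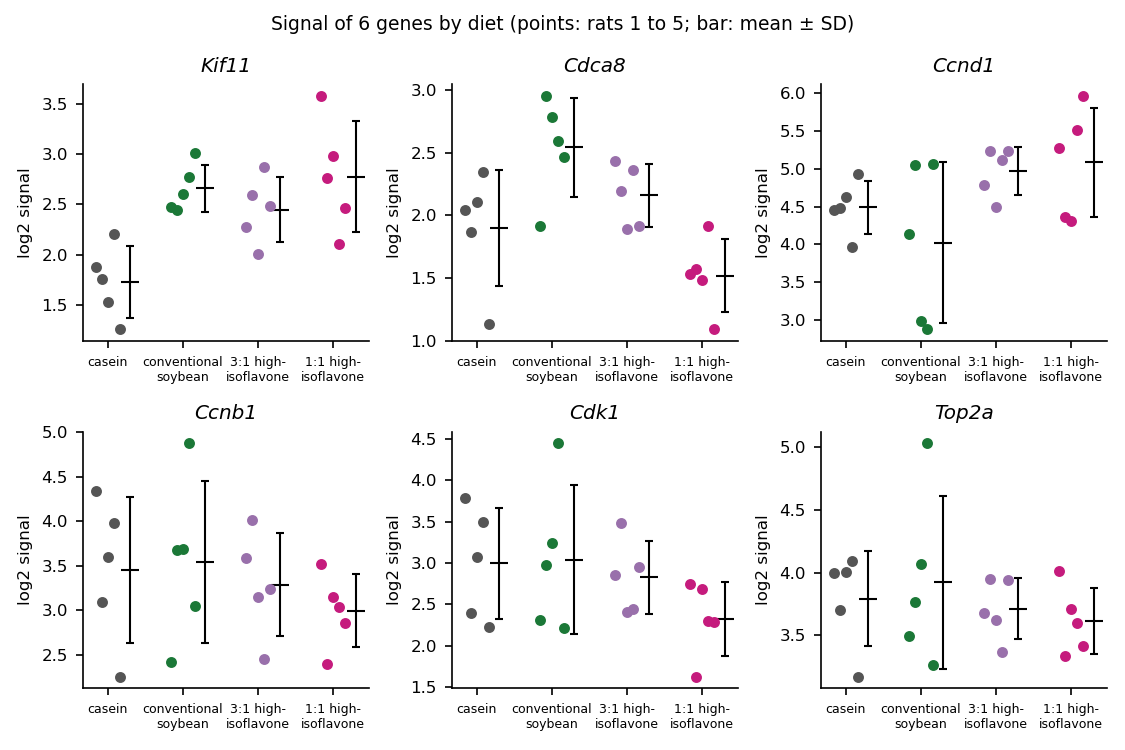
Log2 signal of Kif11, Cdca8, Ccnd1, Ccnb1, Cdk1 and Top2a in each liver by diet (points; the bars give mean ± SD of 5 livers). Kif11 on conventional soybean (2.45 to 3.01) lies wholly above casein (1.26 to 2.21), while the diets overlap for Ccnb1, Cdk1 and Top2a.

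Among the mitotic kinases and the chromosomal passenger complex, Cdca8 came nearest to a difference between the 2 soybean cultivars. Cdca8 encodes borealin, which with survivin (Birc5) holds the kinase Aurkb at centromeres. It read 2.04, 1.87, 2.11, 2.35 and 1.14 on casein, 1.91, 2.95, 2.79, 2.59 and 2.47 on conventional soybean, 2.43, 2.20, 1.89, 2.36 and 1.92 on the 3:1 diet and 1.54, 1.58, 1.48, 1.91 and 1.09 on the 1:1 diet. Every liver on conventional soybean lay at or above 1.91 and every liver on the 1:1 diet at or below it, the 2 nearest being 1.915 and 1.914, and the means were 2.54 ± 0.40 and 1.52 ± 0.29. The 1:1 diet differed from conventional soybean by -1.02 (SE 0.21, adjusted p = 0.0715), which did not pass. It passed without conventional soybean replicate 1 (adjusted p = 0.0246), without casein replicate 5 (0.0203) and without both higher-floor arrays (0.0206), and over all settings the adjusted p ran from 0.0203 to 0.240 and the difference from -1.18 to -0.91. From casein Cdca8 differed by 0.64 (SE 0.21, adjusted p = 0.121) on conventional soybean and by -0.38 (SE 0.21, adjusted p = 0.382) on the 1:1 diet. In the test among the 4 diets its adjusted p was 0.0527, with a range of 0.0218 to 0.113 over all settings. Cdca8 passed that test without casein replicate 5 (0.0401), without conventional soybean replicate 1 (0.0218), without both higher-floor arrays (0.0452), without the probe sets below the lower quartile (0.0454) and with the mean of all probe sets of a gene (0.0437).

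Its partners Aurkb and Birc5 also had their highest mean on conventional soybean (2.44 and 2.24) and their lowest on the 1:1 diet (1.99 and 1.90), and neither passed. This order was not particular to the complex: Ccnb1, Cdk1, Top2a, Ube2c and Tk1 had it too, while Ccnb2 and Aurka were highest on casein. The other probe sets of Ccnb1, Top2a and Tk1 did not keep this order. There Ccnb1 was lowest on the 3:1 diet and Top2a was lowest on casein. Tk1 was highest on casein in one of its other probe sets and on the 1:1 diet in the other. Aurkb read 2.91, 2.05, 2.26, 3.09 and 1.58 on casein, 2.13, 2.17, 2.18, 3.62 and 2.11 on conventional soybean, 2.22, 2.45, 1.56, 2.08 and 2.28 on the 3:1 diet and 2.23, 1.99, 2.12, 1.72 and 1.87 on the 1:1 diet. Conventional soybean replicate 4 stood at 3.62, above the other 4 livers of its diet, which lay between 2.11 and 2.18. Its difference between the 1:1 diet and conventional soybean was -0.46 (SE 0.28, adjusted p = 0.790). For Birc5 that difference was -0.34 (SE 0.15, adjusted p = 0.668), with signals from 1.72 to 2.58 with a median of 2.12. Aurka, the kinase of spindle poles, ranged from 0.94 to 2.49 with a median of 1.5. Plk1, a kinase of mitotic entry and exit, ranged from 2.29 to 3.09 with a median of 2.60, and on conventional soybean it differed from casein by 0.30 (SE 0.13, adjusted p = 0.252). Without casein replicate 1, where Plk1 was highest among the casein livers, Plk1 passed beside Kif11 on conventional soybean.

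The 5 measured genes of the spindle checkpoint and the kinetochore, where microtubules attach to chromosomes, did not pass. Bub1, a checkpoint kinase, read 1.16, 0.83, 1.86, 1.12 and 1.71 on casein, 0.56, 0.65, 0.46, 0.83 and 0.12 on conventional soybean, 1.12, 0.96, 1.40, 0.42 and 1.02 on the 3:1 diet and 1.65, 1.35, 0.79, 0.79 and -0.07 on the 1:1 diet, and all 5 livers on conventional soybean lay below all 5 on casein. Its difference was -0.81 (SE 0.27, adjusted p = 0.132), at dim signals, in a probe set below the lower quartile. Nuf2, a subunit of the Ndc80 complex that binds microtubules, read 1.71, 2.19, 1.95, 1.99 and 1.5 on casein, 1.71, 2.08, 2.18, 2.13 and 1.85 on conventional soybean, 2.16, 2.36, 1.98, 2.37 and 2.08 on the 3:1 diet and 2.23, 2.16, 2.34, 2.37 and 1.82 on the 1:1 diet. Its difference from casein was 0.32 (SE 0.14, adjusted p = 0.564) on the 3:1 diet and 0.31 (SE 0.14, adjusted p = 0.256) on the 1:1 diet, and the ranges of the diets overlapped. Bub1b ranged from 1.54 to 2.41 with a median of 2.08, Mad2l1, an inhibitor of the anaphase-promoting complex, from 2.14 to 3.43 with a median of 2.54, and the kinetochore protein Cenpf from 1.95 to 2.91 with a median of 2.51.

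The 2 measured partners of the anaphase-promoting complex did not pass. Ube2c, the ubiquitin-conjugating enzyme that works with the complex, read 3.43, 2.70, 3.33, 3.19 and 2.81 on casein, 2.60, 3.09, 3.11, 4.09 and 2.82 on conventional soybean, 3.05, 2.98, 2.75, 2.70 and 3.17 on the 3:1 diet and 3.05, 2.46, 2.81, 2.58 and 2.59 on the 1:1 diet, with conventional soybean replicate 4 the highest of the 20. Its difference between the 1:1 diet and conventional soybean was -0.44 (SE 0.21, adjusted p = 0.703). Cdc20, an activator of the complex, ranged from 2.97 to 3.86 with a median of 3.52, with differences from casein of 0.26 on conventional soybean and 0.26 on the 1:1 diet. On its 4 other probe sets the difference between the 1:1 diet and casein was below 0, from -0.28 to -0.0068, and none of them passed. Their correlations with the first were 0.571, 0.447, -0.0174 and -0.0651, so the direction on the 1:1 diet depended on the probe set.

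The 6 measured genes of the spindle, its midzone and cytokinesis had means above casein on each soybean diet, 6 of 6 each time, and Kif11 alone among them passed. After quantile normalization, and after centring and scaling, it was 6 of 6 on conventional soybean and 5 of 6 on the 1:1 and 3:1 diets. Before those steps 58.5%, 56.7% and 53.8% of all genes lay above casein on conventional soybean, the 1:1 and the 3:1 diet. The median difference of the 6 genes was 0.33 on conventional soybean, 0.19 on the 1:1 diet and 0.33 on the 3:1 diet. Hmmr and Nusap1 each had a second probe set, where the difference was 0.05 and 0.20 on conventional soybean. There it was -0.50 and -0.26 on the 1:1 diet and -0.13 and -0.08 on the 3:1 diet, and none passed. These probe sets followed the first with r = 0.228 (Hmmr) and 0.479 (Nusap1). On the 1:1 and 3:1 diets the direction in Hmmr and Nusap1 therefore depended on the probe set. Hmmr, a microtubule-binding hyaluronan receptor, read 2.20, 1.30, 1.80, 1.12 and 0.83 on casein, 2.06, 1.92, 2.87, 1.66 and 2.18 on conventional soybean, 2.49, 2.05, 1.70, 3.71 and 1.99 on the 3:1 diet and 2.24, 1.48, 1.11, 1.62 and 2.10 on the 1:1 diet. Replicate 4 of the 3:1 diet stood at 3.71, the highest of the 20, while the other 4 livers of that diet lay between 1.70 and 2.49. On the 3:1 diet Hmmr differed from casein by 0.93 (SE 0.33, adjusted p = 0.434) and on conventional soybean by 0.69 (SE 0.33, adjusted p = 0.290), and on the 3:1 diet the difference was as low as 0.40 and as high as 1.12 over the settings. All 3 comparisons share the casein livers, of which replicate 5 was the lowest of the 20 for Kif11, Hmmr and Prc1. Nusap1, which bundles spindle microtubules, ranged from 3.25 to 4.14 with a median of 3.86. Prc1, which bundles them at the midzone, ranged from 1.67 to 2.95 with a median of 2.38. Racgap1, which steers the cytokinetic furrow, ranged from 0.90 to 2.62 with a median of 1.72, and Dlgap5, a microtubule stabilizer, from 3.54 to 5.65 with a median of 4.49.

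Of the 2 genes of chromosome structure, neither passed. Top2a, the topoisomerase that untangles the copied DNA, read 3.99, 3.70, 4.01, 4.09 and 3.17 on casein, 3.49, 3.76, 4.07, 5.03 and 3.26 on conventional soybean, 3.68, 3.95, 3.62, 3.36 and 3.94 on the 3:1 diet and 4.01, 3.34, 3.71, 3.60 and 3.41 on the 1:1 diet. Conventional soybean replicate 4 stood at 5.03, above all other livers, and casein replicate 5 at 3.17, below them. Mki67, the proliferation marker Ki-67 that coats mitotic chromosomes, read 3.75, 3.82, 4.10, 4.18 and 3.55 on casein, 4.18, 4.30, 4.17, 4.06 and 4.13 on conventional soybean, 4.13, 3.86, 3.94, 4.03 and 4.35 on the 3:1 diet and 4.23, 4.30, 4.18, 3.99 and 4.17 on the 1:1 diet. Its difference from casein was 0.29 (SE 0.11, adjusted p = 0.200) on conventional soybean and 0.29 (SE 0.11, adjusted p = 0.186) on the 1:1 diet. Mki67 and Top2a had a correlation of 0.191 over the 20 livers, diet means removed.

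Rats of the same diet differed together in part of the family. With each diet's mean removed, the median Pearson correlation over the 780 pairs of the 40 genes was 0.191 across the 20 livers, beside 0.010 over all gene pairs, and 18.3% of the pairs exceeded 0.5 beside 4.02%. These correlations are descriptions with no test: every pair shares the same arrays and their quality. The genes differed widely in how they followed the others. In 8 of the 40 the correlation with the mean of the other 39 exceeded 0.8, in 16 it exceeded 0.5 and in 5 it lay below 0.

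The 8 were Ccnb1 (r = 0.943), Cdk1 (0.916), Aurkb (0.866), Top2a (0.864), Aurka (0.848), Tk1 (0.842), Ube2c (0.841) and Ccnb2 (0.827). Spearman's rho for them ran from 0.759 for Tk1 to 0.949 for Ccnb1. Without conventional soybean replicate 4 and casein replicate 5, the 2 livers farthest from the median, r ran from 0.732 for Ccnb2 to 0.906 for Ccnb1, and 14 of the 40 genes exceeded 0.5. The tightest pair was Cdk1 with its cyclin Ccnb1 (r = 0.933, rho = 0.935, and r = 0.908 without these 2 livers), followed by Cdk1 with Top2a (0.914) and Cdkn3 with Ccnb2 (0.913). The median correlation among the 8 was 0.851, and from 0.769 to 0.865 over the settings tried. These 8 were picked by their correlations in these livers, and 6 of the 8 act in G2 and mitosis, with Tk1 acting in S phase and Top2a in both. Other probe sets followed the first with r = 0.480 for Ccnb1, 0.547 for Top2a, and 0.483 and -0.418 for Tk1. The mean of Aurka, 1.58, lay below the lower quartile of all probe sets (1.84).

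**Figure D4:**
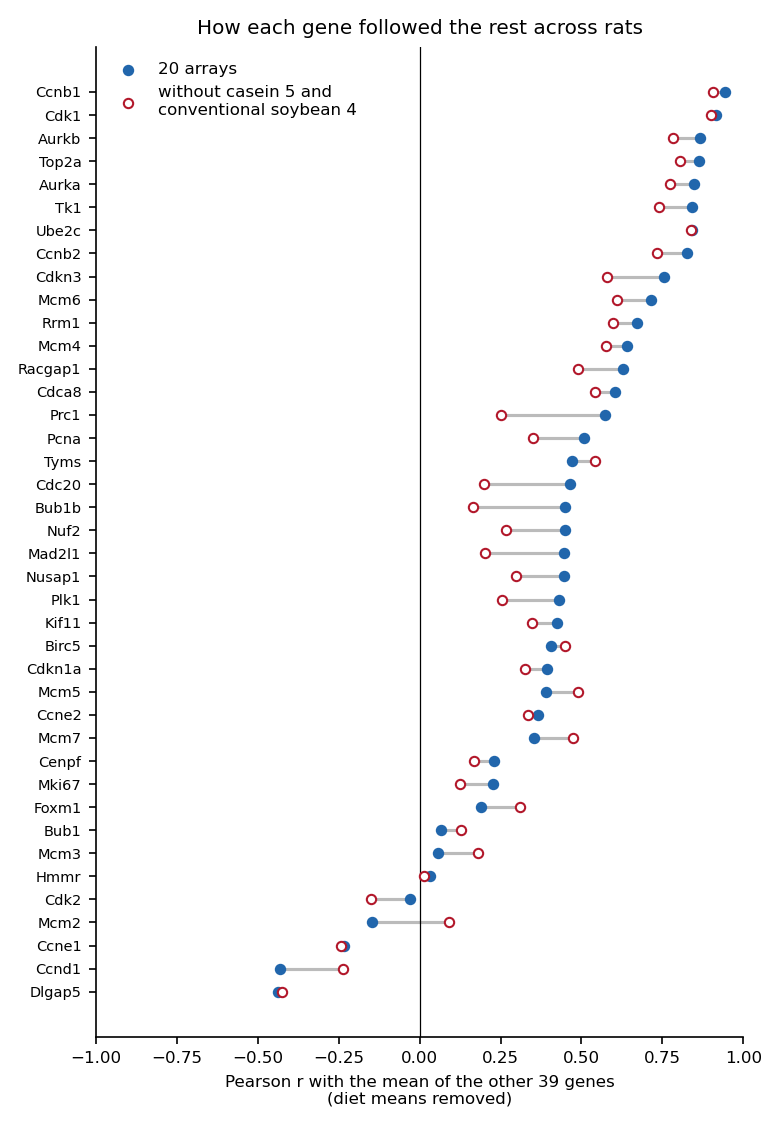
Pearson correlation of each of 40 genes with the mean of the other 39 over 20 livers, diet means removed (filled points), and over 18 livers without casein replicate 5 and conventional soybean replicate 4 (open points). Ccnb1 and Cdk1 lie highest at 0.943 and 0.916, Prc1 drops from 0.574 to 0.251 without the 2 livers, and Ccnd1 and Dlgap5 lie lowest at -0.431 and -0.437.

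Kif11, the gene that rose with soybean, was not among the tightly linked genes. Its correlation with the others was 0.424, and 0.349 without the 2 livers. Mki67 (0.225), Foxm1 (0.191), Mcm3 (0.0572) and Hmmr (0.0322) followed the others weakly, and Ccne1 (-0.233), Mcm2 (-0.149) and Cdk2 (-0.0303) lay below 0. Dlgap5, whose product stabilizes mitotic spindles, lay lowest with r = -0.437 and -0.425 without the 2 livers. Ccnd1 lay at -0.431, and at -0.237 without them. Within the role groups the median pairwise correlation was 0.485 for the genes of mitotic entry, 0.389 for nucleotide supply, 0.375 for the mitotic kinases and passengers, 0.247 for the replication genes, 0.205 for the spindle checkpoint and kinetochore genes, 0.101 for the 6 genes of the spindle, midzone and cytokinesis and -0.06 for the G1 to S regulators. The 2 partners of the anaphase-promoting complex correlated by 0.323 and the 2 chromosome genes by 0.191.

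**Figure D5:**
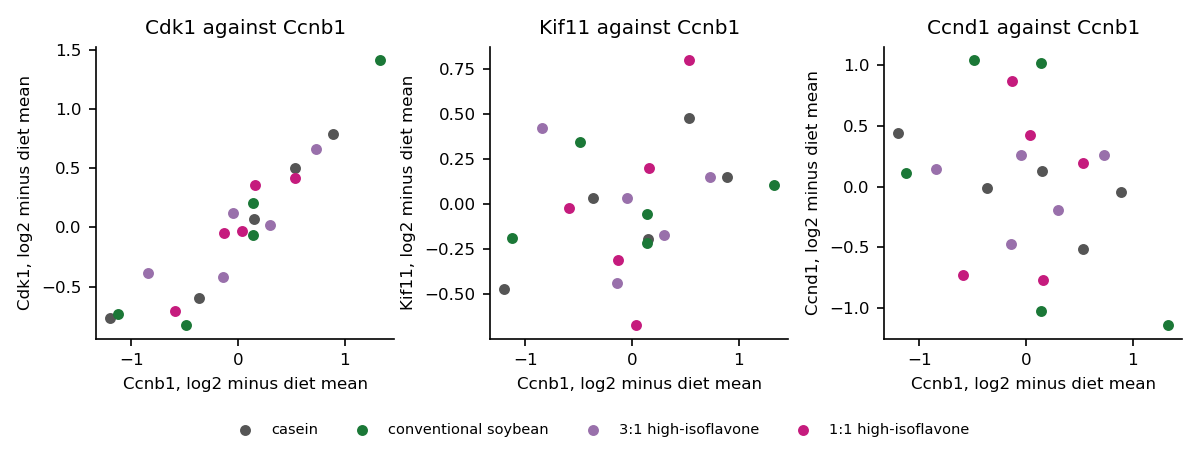
Cdk1, Kif11 and Ccnd1 against Ccnb1 in 20 livers, each as log2 minus the mean of its diet (points coloured by diet). Cdk1 follows Ccnb1 (r = 0.933), with conventional soybean replicate 4 at the upper right.

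Averaged over the 8 genes, each taken relative to its mean over the 20 livers, conventional soybean replicate 4 stood at 1.24, the highest, followed by casein replicates 1 (0.631) and 4 (0.547) and replicate 2 of the 3:1 diet (0.391). The lowest were replicate 2 of the 1:1 diet (-0.690), casein replicate 5 (-0.517) and conventional soybean replicate 1 (-0.480). Conventional soybean replicate 4 was the highest of the 20 livers in 19 of the 40 genes, and casein replicate 5 the lowest in 9 and replicate 2 of the 1:1 diet in 7. The diet means of this average were 0.169 ± 0.480 on casein (SD, n = 5), 0.155 ± 0.673 on conventional soybean, -0.024 ± 0.321 on the 3:1 diet and -0.300 ± 0.261 on the 1:1 diet. The 4 ranges overlapped, with values from -0.517 to 0.631 on casein and from -0.690 to 0.022 on the 1:1 diet.

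Markers of other cells and of RNA quality were set beside this average of 8 genes, each marker list as its summed level per liver with diet means removed. The correlation was 0.168 for hepatocytes (10 of 10 listed markers measured), 0.266 for macrophages (10 of 12), 0.0051 for lymphocytes (14 of 17), 0.120 for stellate cells (9 of 10), -0.092 for bile duct cells (6 of 8), 0.167 for red cell precursors (7 of 10) and -0.054 for neutrophils (5 of 8). For endothelial cells (8 of 10) it was -0.531, and -0.365 without the 2 livers farthest from the median of that list. The 2 livers left out were chosen anew for each list, as those farthest from its own median. Leaving them out moved the value to -0.423 for bile duct cells and to 0.307 for neutrophils. For the other 5 lists it moved to between -0.043 and 0.193. The summed endothelial level ran from 6.57 to 7.07, from 6.74 to 6.92 on casein, 6.57 to 7.00 on conventional soybean, 6.68 to 6.95 on the 3:1 diet and 6.83 to 7.07 on the 1:1 diet, and its lowest value fell in conventional soybean replicate 4. The difference of 3′ and 5′ signal correlated with the average by 0.217 for beta-actin and by -0.435 for GAPDH, the array median by -0.318 and the array floor by -0.257. The part of these measures in the covariation was not tested. Between diets, single markers of these lists passed: the hepatocyte enzyme Tat and the bile duct marker Epcam were lower on conventional soybean and on the 1:1 diet than on casein, and the neutrophil peptide Camp was higher on conventional soybean. No marker of macrophages, lymphocytes, endothelial cells, stellate cells or red cell precursors was called in the 5 comparisons.

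The promoters of some of these genes are printed here because several of the genes that varied together across livers are textbook targets of shared promoter elements. These are the CHR element of mitotic genes, the CCAAT box that often lies near it, and the E2F site of replication genes. RefSeq's promoter table for the build GRCr8 held 35 of the 46 genes. The 250 bases before the annotated start of transcription are shown 5′ to 3′ in the direction of transcription, with the matches of 3 motifs in capitals. The motifs searched, on both strands, were TTTGAA or TTCGAA for the CHR, CCAAT, and TTTCCCGC, TTTGGCGC or TTTCGCGC for E2F, so that ATTGG and TTCAAA are matches on the opposite strand. Ccnb1, Cdk1 and Top2a are shown as 3 genes of the tightly linked 8, Mcm6 as a replication gene and Kif11 as the gene that rose.
Ccnb1, chr2:33655226-33655475, minus strand: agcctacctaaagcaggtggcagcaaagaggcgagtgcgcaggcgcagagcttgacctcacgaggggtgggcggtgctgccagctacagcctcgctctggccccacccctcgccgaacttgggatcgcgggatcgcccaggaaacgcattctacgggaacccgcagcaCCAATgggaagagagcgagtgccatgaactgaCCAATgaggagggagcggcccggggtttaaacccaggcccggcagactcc
Cdk1, chr20:19265043-19265292, plus strand: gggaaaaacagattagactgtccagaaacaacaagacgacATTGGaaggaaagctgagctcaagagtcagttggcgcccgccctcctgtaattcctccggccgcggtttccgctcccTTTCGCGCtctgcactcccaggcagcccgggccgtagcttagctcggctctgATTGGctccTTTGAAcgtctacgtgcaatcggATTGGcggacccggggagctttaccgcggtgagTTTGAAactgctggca
Top2a, chr10:84473094-84473343, minus strand: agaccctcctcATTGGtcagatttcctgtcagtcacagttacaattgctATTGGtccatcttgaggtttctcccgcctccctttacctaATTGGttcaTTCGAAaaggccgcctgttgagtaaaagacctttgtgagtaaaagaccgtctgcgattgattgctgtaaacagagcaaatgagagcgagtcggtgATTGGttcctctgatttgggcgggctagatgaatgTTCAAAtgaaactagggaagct
Mcm6, chr13:42404353-42404602, minus strand: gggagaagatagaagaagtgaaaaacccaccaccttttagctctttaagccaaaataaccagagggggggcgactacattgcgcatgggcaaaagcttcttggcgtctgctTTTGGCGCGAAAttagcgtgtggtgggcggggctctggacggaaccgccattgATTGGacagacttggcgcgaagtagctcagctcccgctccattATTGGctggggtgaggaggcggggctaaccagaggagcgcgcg
Kif11, chr1:244536617-244536866, plus strand: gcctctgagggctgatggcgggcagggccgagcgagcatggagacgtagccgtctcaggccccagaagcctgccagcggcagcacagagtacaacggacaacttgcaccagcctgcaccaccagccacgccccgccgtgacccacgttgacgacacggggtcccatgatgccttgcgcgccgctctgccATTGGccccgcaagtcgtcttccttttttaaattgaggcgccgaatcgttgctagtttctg

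In the Cdk1 promoter a CHR match lay 16 bases and another 72 bases before the start, counted to the first base of the match as printed, with CCAAT matches at 49, 81 and 210 bases and an E2F match at 133. Top2a held CHR matches 22 and 152 bases before the start and CCAAT matches at 57, 161, 201 and 239. Ccnb1 held 2 CCAAT matches, at 50 and 82 bases, and no match to the CHR letters in this window. Mcm6 held 2 overlapping E2F matches, at 139 and 135 bases, 1 on each strand, and CCAAT matches at 43 and 86. Kif11 held a single CCAAT match, at 61 bases. Over the 35 promoters the CHR letters occurred in 14 (40%) beside 17.3% of all 27457 promoters of this length, CCAAT in 24 (68.6%) beside 34.3%, and the E2F letters in 6 (17.1%) beside 1.49%. The 6 with E2F letters were Cdk1, Mcm2, Mcm5, Mcm6, Mcm7 and Tyms, of which 5 are genes of DNA replication and its nucleotides. Of the tightly linked 8 genes, 6 were among these promoters. The CHR letters occurred in 3 of those 6, CCAAT in 4 and the E2F letters in 1. Aurka and Tk1, which are not shown, held no match to any of the motifs in this window. A match describes the sequence and says nothing of binding in these livers.

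Outside the family, the genes that most resembled the mean of the 40 across livers were again mostly genes of division. By Pearson correlation over the 20 livers with diet means removed, they were Kif20a (0.925), Pclaf (0.871), Cdca3 (0.862), Stmn1 (0.856), Pttg1 (0.854), Spc24 (0.853), Ppib (0.779), H2az1 (0.758), Dctpp1 (0.755) and Tcf19 (0.755). Kif20a encodes a kinesin of cytokinesis, Pclaf a Pcna-binding protein, Stmn1 a tubulin-binding protein, Pttg1 securin and Spc24 a kinetochore protein, while Ppib is a chaperone of the endoplasmic reticulum. Without conventional soybean replicate 4 and casein replicate 5, Kif20a stood at 0.869 and Ppib at 0.686. None of these 10 passed in any of the 5 comparisons of 2 diets, the smallest adjusted p being 0.0850 for H2az1.

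A wider list of 129 other cell cycle genes had 107 with values. Of the 107, none was higher and 1 was lower on conventional soybean than on casein, 3 were lower on the 1:1 diet than on casein, and 1 was lower on the 1:1 diet than on conventional soybean, with none called on the 3:1 diet against casein or against the 1:1 diet. Over all genes, 1.86%, 2.53% and 0.104% were called in the first 3 of these comparisons. At an unadjusted p under 0.05 the 107 held 25, 22 and 10 genes in those comparisons, 10 on the 3:1 diet against casein and 6 between the high-isoflavone diets, beside 17.2%, 17.5%, 7.29%, 8.51% and 7.45% of all genes. Their median differences were 0.09, 0.03 and -0.02 for conventional soybean, the 1:1 and the 3:1 diet against casein. Of the 107, 13.1% exceeded a correlation of 0.5 with the mean of the 40, beside 2.01% of all genes and 40% of the 40 genes with the mean of their fellows.

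Rpa3, the smallest subunit of the protein that coats single-stranded DNA, read 4.92, 5.10, 4.97, 5.10 and 4.67 on casein, 4.70, 4.85, 4.90, 5.19 and 4.75 on conventional soybean, 4.77, 4.82, 4.43, 4.20 and 3.96 on the 3:1 diet and 3.68, 3.48, 3.99, 4.14 and 4.09 on the 1:1 diet. All 5 livers on the 1:1 diet lay below all on casein and conventional soybean, and the mean of the 3:1 diet lay between. Rpa3 fell on the 1:1 diet relative to casein, a difference of -1.08 (SE 0.16, adjusted p = 0.000758), and relative to conventional soybean, -1.0 (SE 0.16, adjusted p = 0.00767). On the 3:1 diet its difference from casein was -0.52 (SE 0.16, adjusted p = 0.307). The call against casein held in all 30 settings, and that against conventional soybean ended without the 4 arrays numbered 1 (adjusted p = 0.0535).

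Rbl1, the pocket protein p107 that represses E2F targets, read 2.51, 1.96, 1.66, 1.15 and 2.05 on casein, 1.02, 0.65, 0.76, 0.67 and 0.68 on conventional soybean, 1.2, 1.59, 0.92, 0.55 and 1.63 on the 3:1 diet and 0.59, -0.10, 0.76, 0.82 and 1.41 on the 1:1 diet. All 5 conventional soybean livers lay below the casein livers, and on the 1:1 diet replicate 5 alone lay within their range. Rbl1 fell on conventional soybean, a difference of -1.11 (SE 0.27, adjusted p = 0.0378), and on the 1:1 diet, -1.17 (SE 0.27, adjusted p = 0.0212). Its mean over the 20 arrays lay below the lower quartile of all probe sets (1.84), so both differences were at dim signals. The first call ended without casein replicate 1, 2, 3 or 5 or conventional soybean replicate 2, 3, 4 or 5 (adjusted p from 0.0569 to 0.0951) and without both higher-floor arrays (0.104). The second ended without casein replicate 1 or 5 or replicate 2 of the 1:1 diet (0.0581 to 0.0711), without both higher-floor arrays (0.0675) and with only the arrays compared (0.0590), and without the 4 arrays numbered 1 both ended (0.103 and 0.118). Ccnd2, a second D-type cyclin, read 1.79, 1.78, 2.05, 1.74 and 1.81 on casein, 1.68, 1.59, 1.52, 1.37 and 1.2 on conventional soybean, 1.71, 1.55, 1.67, 1.87 and 1.18 on the 3:1 diet and 1.41, 1.24, 1.42, 0.79 and 1.18 on the 1:1 diet, and fell on the 1:1 diet, a difference of -0.63 (SE 0.15, adjusted p = 0.0236). That call ended without casein replicate 3 or 5 or replicate 2 or 4 of the 1:1 diet (0.0531 to 0.0745), without both higher-floor arrays (0.0613), without the 4 arrays numbered 1 (0.0520) and with only the arrays compared (0.0503). The mean of Ccnd2 also lay below the lower quartile. Among the 40 and the 107 measured genes, Rpa3, Rbl1, Ccnd2 and Kif11 were the ones called in the 5 comparisons of 2 diets.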

How the data were processed

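Liver RNA of 20 rats was measured on Affymetrix arrays that read the 3′ end of messenger RNAs. The authors deposited 1 table of log10 values, normalized with the SuperNORM data service per the labels; no label says how probes were summarized. No label states the log base: it was inferred from the spike-in controls, whose slope was 1.01 ± 0.0243 (SD, 20 arrays) log10 units per log10 unit of amount. Values were multiplied by 3.3219 to give log2, with no further normalization. Of 31099 probe sets, 57 controls and 3342 with no value were left out (2 in both), leaving 27702, of which 19147 had 1 gene symbol in the platform annotation, 404 several and 8151 none. For arrays, their number limits the precision.

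The diets' means were compared, two-sided, in R 4.3.3 with limma 3.58.1 (lmFit over all 20 arrays, then eBayes with trend), with Benjamini-Hochberg adjustment over the 27702 probe sets and calls at an adjusted p under 0.05. The code was tested on simulated data. Each SE is that of this fit. Values of every array are printed for genes called, for the 3 with the smallest p in each comparison, for the most variable gene of each role group and for the 3 most and least variable of the genes above the median signal; Cdk1, the 8 tightly linked genes and the printed promoters were picked after their values were seen. The genes and lists were chosen with earlier results of these data known. Alternatives changed the scaling, the floor, the filter on dim probe sets, the trend, the arrays in the fit, the choice of probe set and single arrays.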

Additional observations from a re-analysis of the deposited data

Results flagged for a closer look

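Of the 168 sets of 5 livers examined (the 40 genes and 2 of their averages in 4 diets), 8 held a liver far from the other 4, where chance alone gives about 1 in 20, or 8.4. Ccne2 stood at 0.883 in replicate 3 of the 3:1 diet, with the nearest other liver of that diet at 1.94. Cdkn3 stood at 1.60 in casein replicate 5, with the nearest at 2.46. Pcna and Tk1 were both low in replicate 2 of the 1:1 diet, Pcna at 2.61 with the nearest at 3.20 and Tk1 at 2.37 with the nearest at 2.66. Tyms stood at 0.0651 in conventional soybean replicate 5, with the nearest at 1.42. Aurkb stood at 3.62 in conventional soybean replicate 4, with the nearest at 2.18. Plk1 stood at 3.07 in casein replicate 1, with the nearest at 2.50. Nusap1 stood at 3.25 in replicate 5 of the 1:1 diet, with the nearest at 3.85.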

How the results depend on the processing

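The differences of Kif11, Cdca8, Bub1, Mki67, Ccnb2, Hmmr, Nuf2, Tk1, Ccnd1, Rpa3, Rbl1 and Ccnd2 that were run again kept their direction in every setting; other genes were not followed singly, and under both other scalings 1 of the 6 spindle genes changed sign on each of the 1:1 and 3:1 diets against casein. The count of genes called among the 40 on the 3:1 diet against casein, and between the 2 high-isoflavone diets, was 0 in all 30 settings each. On conventional soybean against casein it was 1, and 0 without both higher-floor arrays; leaving out 1 array gave 0 to 2. On the 1:1 diet against casein it was 1 in all 20 omissions of a single array, and 0 with only the arrays compared, without both higher-floor arrays and without the 4 arrays numbered 1. From conventional soybean to the 1:1 diet it was 0, and 1 (Cdca8) without both higher-floor arrays and with the replicate number as a block (adjusted p = 0.0340); leaving out 1 array gave 0 to 1. In the test among the 4 diets it was 1, and 0 after quantile normalization, after centring and scaling, without trend and without the 4 arrays numbered 1, and 2 (Kif11 and Cdca8) without probe sets below the lower quartile and with the mean of all probe sets of a gene; leaving out 1 array gave 0 to 1. That test called Cdca8 in place of Kif11 with the replicate block (0.0274 and 0.0703), without both higher-floor arrays (0.0452 and 0.162), and without casein replicate 5 or conventional soybean replicate 1. The block changed no other count. The replicate numbers in the titles were not taken to pair the rats: 12 of the 30 same-numbered pairs had a correlation over 0.1. The median differences of the 40 genes ran from 0.03 to 0.23 on conventional soybean, -0.11 to 0.06 on the 1:1 diet and -0.09 to 0.08 on the 3:1 diet against casein, the last 2 crossing 0, and from -0.24 to -0.06 for the 1:1 diet against conventional soybean. The median pairwise correlation ran from 0.141 to 0.210. The causes of these changes were not tested. With 8 of the 40 genes below the lower quartile of signals, dim signals limit what could be seen.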
